A study of Mus musculus with 8 samples.

Results

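Wscd1, Mpzl2, Lmcd1 and Klk8 are 4 genes of mouse pro-B cells chosen by their array values: low in control cells and much higher in menin-deficient cells, or rising steadily. They are 4 of 18193 genes that the platform annotation names singly, and 7 of 45037 probe sets carry their symbols. The cells were bone marrow pro-B cells of Fraction B (positive for B220, CD43 and HSA, negative for BP-1). They came from 4 MenF/F mice (control) and 4 Rag1-cre;MenF/F mice (menin-deficient). Every mouse of both groups thus carried floxed Men1, and every menin-deficient mouse and no control carried Cre, so Cre and menin loss cannot be told apart. Mice were 2 to 3 weeks old, and the labels call the 4 arrays of each group biological replicates. Values are log2 as deposited, and the lowest value of every array is 2.08.

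Menin is a chromatin-bound protein, encoded by Men1, that joins the histone methyltransferases MLL1 (Kmt2a) and MLL2 at promoters. Rag1-driven Cre acts in lymphoid progenitors, where the recombinase gene Rag1 is switched on. The products of the 4 genes belong to different families. Wscd1 encodes a membrane protein with WSC domains and a sulfotransferase domain. Mpzl2 (also called Eva1) encodes a homophilic adhesion protein with a V-type immunoglobulin domain, known from thymic epithelium. Lmcd1 (dyxin) encodes a protein with PET and LIM domains that can repress GATA6 and is linked to calcineurin signalling in heart muscle. Klk8 (neuropsin) encodes a secreted trypsin-like protease of the kallikrein family, known from skin and hippocampus.

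Promoter sequence was matched for 3 of the 4 genes in RefSeq (GRCm38.p6), and not for Mpzl2. The stretches before the first annotated start of Lmcd1 and Klk8 are shown because the genes were raised together while their starts differ in CpG density. Both strands were searched for the TATA box (TATAAA), the NF-Y motif (CCAAT), the GC box that Sp1 binds (GGGCGG), the E-box (CACGTG), the AP-1 motif (TGANTCA), the Meis motif (TGACAG) and the palindromic EBF1 motif. Capitals mark matches. Lmcd1 is shown from base -250 to -1 (chr6:112273508-112273757, plus strand) and Klk8 from -250 to -46 (chr7:43797327-43797531, plus strand).
Lmcd1: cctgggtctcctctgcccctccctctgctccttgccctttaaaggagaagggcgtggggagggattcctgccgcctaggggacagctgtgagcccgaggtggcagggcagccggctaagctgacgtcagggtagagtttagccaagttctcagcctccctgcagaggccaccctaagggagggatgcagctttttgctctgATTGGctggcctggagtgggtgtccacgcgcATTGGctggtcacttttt
Klk8: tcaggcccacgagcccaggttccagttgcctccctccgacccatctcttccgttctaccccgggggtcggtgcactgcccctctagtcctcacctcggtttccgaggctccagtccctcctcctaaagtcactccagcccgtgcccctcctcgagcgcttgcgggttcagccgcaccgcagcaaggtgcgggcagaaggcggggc

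The 250 bases before the Lmcd1 start held 2 matches to CCAAT, both on the opposite strand (ATTGG), at -49 to -45 and -18 to -14. Of 32851 promoter stretches of the same length, 33.8% held CCAAT. The Klk8 stretch held 1 match to GGGCGG, at -42 to -37, just beyond the printed bases, and 32.7% of all stretches held that motif. No match overlapped another. Wscd1 has 3 annotated starts, and 2 of them share a match to TGANTCA, printed here with 10 bases on either side (chr11:71750581-71750607, plus strand).
Wscd1: gggtgtctggTGATTCAgtgtgtattt

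This motif was in 6.75% of all stretches. The TATA box, the E-box, the Meis motif and the EBF1 motif had no match in the windows of the 3 genes. They were in 12.4%, 6.02%, 15.9% and 0.779% of all stretches. CpG density differed among them. The ratio of observed to expected CpG was 0.301 for Lmcd1, 0.700 for Klk8 and 0.432, 0.514 and 0.924 for the 3 Wscd1 starts, against a median of 0.373 over all stretches. The 3 genes share no motif of this search in these windows, and the 4 genes lie on 4 chromosomes, Wscd1 on 11, Mpzl2 on 9, Lmcd1 on 6 and Klk8 on 7.

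Wscd1 was near the bottom of its scale in control cells and clearly above it in every menin-deficient mouse. On its brighter probe set control replicates 1 to 4 had 2.24, 2.24, 2.27 and 2.24. Menin-deficient replicates 1 to 4 had 6.53, 5.96, 5.56 and 5.96. All control arrays but replicate 3 held 1 identical value, and the groups were separated by 3.30. Means were 2.24 ± 0.0151 and 6.0 ± 0.400 (SD, n = 4 each), a log2 difference of 3.76 or about 13.5-fold. Its other probe set stayed at 2.08 on all 8 arrays, so only 1 of 2 probe sets registered the gene. Which exons either probe set reads was not analysed here. In bulk samples such as these, fewer cells of a type and less RNA per cell cannot be told apart.

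Mpzl2 showed the same step with much more spread among the mutant mice. On its brightest probe set all 4 control arrays held the same value, 2.10. Menin-deficient replicates 1 to 4 had 6.22, 5.72, 3.56 and 5.29. Replicate 3 was by far the lowest mutant array and still lay 1.46 above the controls. The mutant mean was 5.20 ± 1.16 (SD, n = 4), a log2 difference of 3.10 (8.54-fold), and 3.64 without replicate 3. The second probe set, an _x_at set that may read more than 1 transcript, was at 2.08 in all controls and at 3.32, 2.40, 2.08 and 3.35 in menin-deficient replicates 1 to 4. Here, too, replicate 3 was lowest, at the floor. The third probe set stayed at 2.08 on all 8 arrays.

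Lmcd1 has 1 probe set, an _s_at set that may read transcripts of more than 1 gene. Control replicates 1 to 4 had 2.71, 2.71, 2.71 and 2.86. Menin-deficient replicates 1 to 4 had 5.99, 5.76, 5.12 and 5.96. The controls other than replicate 4 held 1 identical value, and the lowest mutant array was 2.26 above the highest control. Means were 2.75 ± 0.0755 and 5.71 ± 0.402 (SD, n = 4 each), a log2 difference of 2.95 (7.75-fold).

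Klk8 went against the name of the group, since it was already well measured in control cells. Controls 1 to 4 read 9.20, 9.44, 9.42 and 9.47 on its only probe set. The mutant arrays 1 to 4 read 11.38, 11.17, 11.01 and 10.95. No control array was at a repeated lowest value, and the array medians were only 3.29 to 3.45 in controls. Means were 9.38 ± 0.125 and 11.1 ± 0.194 (SD, n = 4 each), a log2 difference of 1.75 (3.36-fold), with 1.48 between the groups. Klk8 is therefore a steady rise of a gene with signal in both groups, while Wscd1, Mpzl2 and Lmcd1 rose from the floor.

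**Figure D1:**
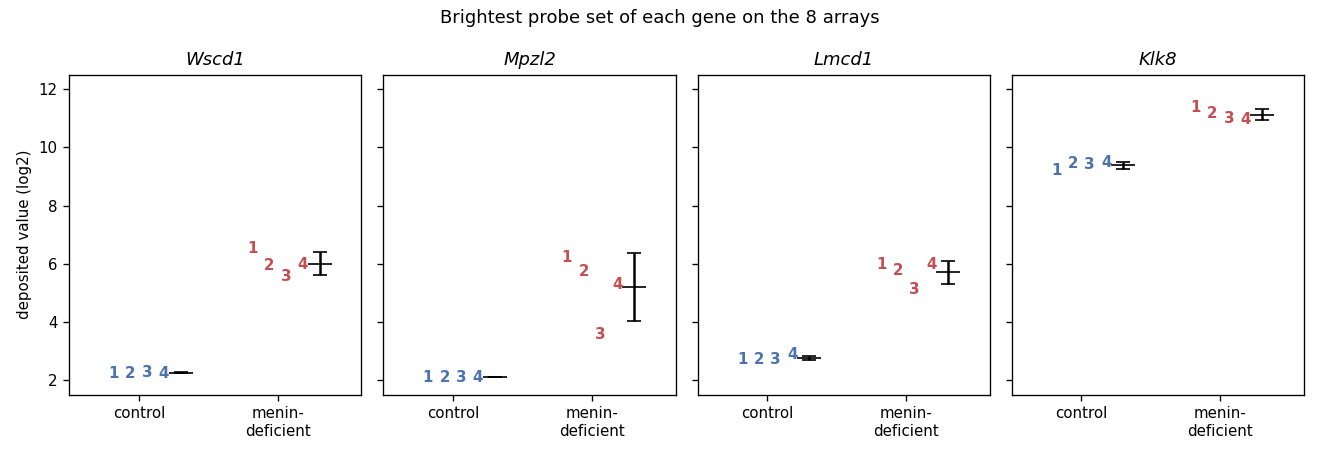
Deposited log2 value (vertical axis) of the brightest probe set of Wscd1, Mpzl2, Lmcd1 and Klk8 on each array. Digits are replicate numbers, blue for control and red for menin-deficient, and the bar beside them is the mean with its SD (n = 4). Controls of the first 3 genes lie between 2.10 and 2.86 and the mutants spread from 3.56 to 6.53, while Klk8 starts at 9.20 to 9.47.

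These differences chose the genes and are given without a test. The groups did not overlap for 4 of 4 brightest probe sets, and mutant arrays were above all controls for 20.3% of the 11885 tested genes. By size of rise Wscd1 was in place 4, Mpzl2 in place 7, Lmcd1 in place 11 and Klk8 in place 84 of the tested genes. In all, 4 of the 7 probe sets passed the filter on low values. The filter's limit was 2.09 to 2.10, below the floor of Wscd1, Mpzl2 and Lmcd1, so their control arrays passed it too, and passing it is no sign of detection.

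Among all genes, limma called 2536 of 11885 (21.3%) at an adjusted p under 0.05, of which 1922 (16.2%) were higher and 614 (5.17%) lower in menin-deficient cells. Leaving out control replicate 1 gave 1609 calls, and leaving out menin-deficient replicate 2 gave 1410. Setting the median tested gene of every array to the same level takes 0.13 off every difference and gave 911 higher and 971 lower genes, and quantile normalization gave 1339 and 728. After centring the 4 genes still differed by 3.63 (Wscd1), 2.97 (Mpzl2), 2.83 (Lmcd1) and 1.62 (Klk8). Men1 fell, from 9.54 ± 0.256 to 8.15 ± 0.278 on its brightest probe set (SD, n = 4 each, limma adjusted p = 0.00391). Whether this probe set reads the deleted part of Men1 was not analysed here.

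Few probe sets behaved as Wscd1, Mpzl2 and Lmcd1 did. On these arrays a probe set has its own floor, a value that several arrays share exactly. On 18557 of 45037 probe sets at least 3 control arrays sat at the probe set's own lowest value. Only 8 probe sets (0.0178%) had at least 3 controls there, the fourth within 0.2, and every mutant array at least 1 above the highest control. No probe set (0%) did the reverse, from signal in control cells to the floor in mutant cells. The 8 were probe sets of Rps6ka6 (log2 difference 5.22), Wscd1, Mpzl2, Lmcd1, Slfn5 (2.07), Pwwp3b (1.94), Myom2 (1.93) and Nbea (1.71). The 3 genes described here are thus ranks 2, 3 and 4 of this class, which was defined after their values were seen and supports nothing by itself.

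Rps6ka6, a ribosomal S6 kinase, had 2.55 in each of the 4 controls and 8.27, 8.22, 6.88 and 7.70 in menin-deficient replicates 1 to 4. As for the 3 genes, replicate 1 was highest and replicate 3 lowest. Slfn5, a Schlafen family gene, had 2.28, 2.28, 2.33 and 2.28 in controls and 4.54, 4.51, 3.70 and 4.67 in mutants, again with replicate 3 lowest. Pwwp3b (a PWWP domain gene), Nbea (neurobeachin) and Myom2 (a sarcomeric protein gene) did not all share that order. Pwwp3b was lowest in replicate 1 (3.58) and Myom2 highest in replicate 3 (6.89). The brightest probe set of Myom2 differed by 0.63 (limma adjusted p = 0.0629), so its step rests on a dimmer one. With 1 array left out the class held 8 to 13 probe sets, most without control replicate 4. Leaving out an array only loosens the rule, so Wscd1, Mpzl2 and Lmcd1 stayed in the class by construction. The reverse class then held 0 to 2.

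A limit fixed on the array instead of the probe set gave a different class. Probe sets under the 40th percentile of their array in all controls and above it in all mutants, with the same gap of 1, numbered 2 (0.00444% of all), Pwwp3b and Nbea, and 0 (0%) went the other way. Wscd1, Mpzl2 and Lmcd1 were not among them, since their floors lay above that percentile. With the 50th percentile as the limit 12 were raised and 2 lowered.

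**Figure D2:**
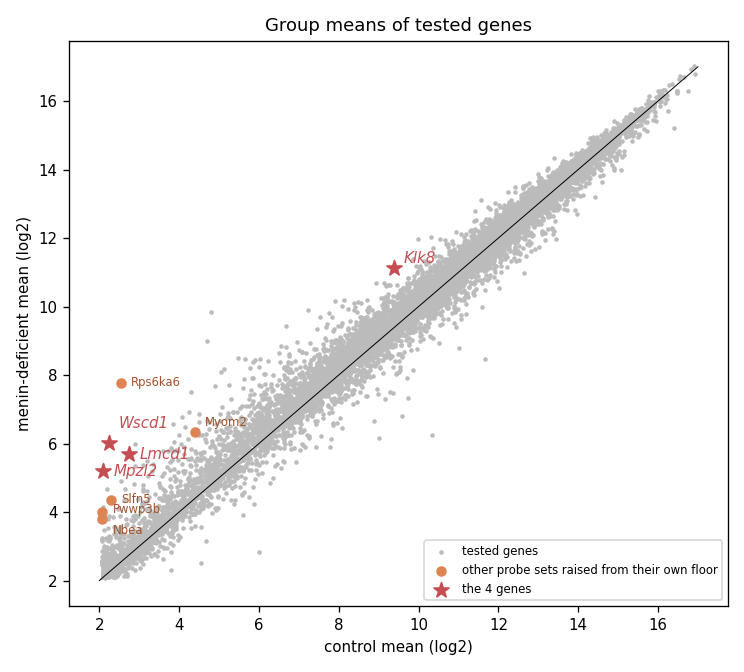
Control mean (horizontal) against menin-deficient mean (vertical) of log2 values for 11885 tested genes (grey), with equal values on the line. Stars are the 4 genes and orange points the other 5 probe sets raised from their own floor. Wscd1, Mpzl2 and Lmcd1 lie at the left edge and Klk8 in the middle of the range.

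The mutant arrays did not carry the 4 genes to the same degree. Replicate 1 was highest for all 4 genes. Replicate 3 was lowest for Wscd1, Mpzl2 and Lmcd1, and replicate 4 for Klk8. Menin-deficient replicates 1 to 4 spanned 0.971 for Wscd1, 2.66 for Mpzl2, 0.864 for Lmcd1 and 0.432 for Klk8. These spans were far below the gap to controls for Wscd1, Lmcd1 and Klk8, and larger than it (1.46) for Mpzl2.

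The remaining Men1 signal had the opposite order of some of these genes on some of its probe sets. On its brightest probe set Men1 was 7.85, 8.24, 8.495 and 8.03 in menin-deficient replicates 1 to 4, lowest in replicate 1 and highest in replicate 3. Wscd1 and Lmcd1 ran exactly opposite over the 4 arrays, from replicate 1 through 4 and 2 to 3, although Wscd1 values of replicates 4 and 2 both round to 5.96. On the second Men1 probe set the values were 7.19, 7.30, 7.46 and 7.49, lowest in replicate 1 and highest in replicate 4, which is the reverse of Klk8. The third and dimmest Men1 probe set, an _x_at set, did not share this: it read 5.52, 5.25, 5.57 and 5.52 and was lowest in replicate 2. The order of Mpzl2, from replicate 1 through 2 and 4 to 3, was the exact reverse of no Men1 probe set. These orders were noticed after the values were seen, rest on 4 arrays, and were not tested.

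**Figure D3:**
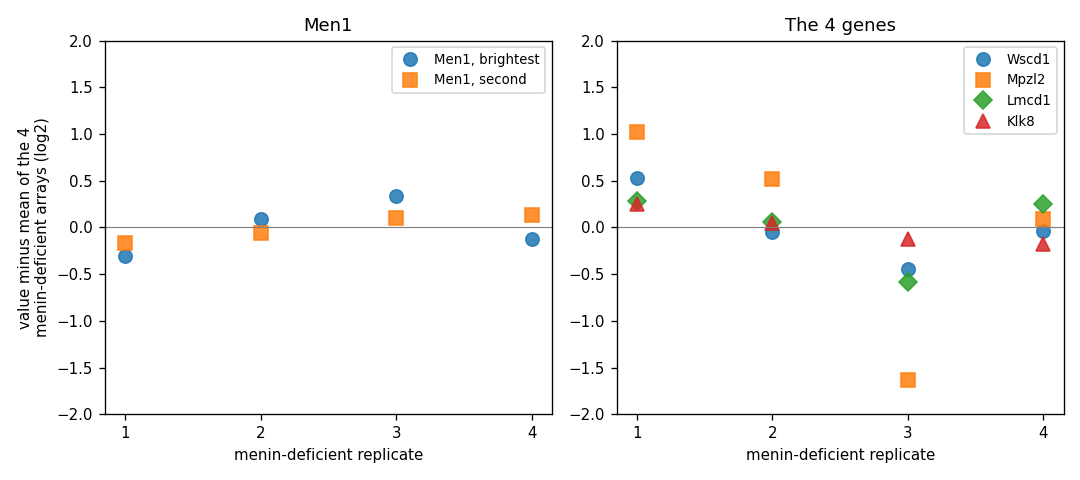
Deviation of each menin-deficient replicate from the mean of the 4 (log2, vertical) for the 2 brighter Men1 probe sets (left) and the brightest probe set of each of the 4 genes (right). Replicate 1 is lowest for both Men1 probe sets shown and highest for all 4 genes, and Mpzl2 in replicate 3 lies farthest out.

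Genes with the most similar profile over the 8 arrays were mostly genes with a clean gap between the groups. Since the arrays fall into 2 groups, a high Pearson r here reflects that gap first, and it is given as a description. Wscd1 was closest to Rps6ka6 (r = 0.996), Lmcd1 (0.995), Klk8, Zc2hc1a and Dsel (0.993 each). Lmcd1 was closest to Rps6ka6 (0.996), Wscd1 (0.995), Gm5124, Slfn5 (0.994 each) and Bop1 (0.991). Klk8 was closest to Abcb8 (0.996), Naxe and 2810025M15Rik (0.995 each), Tnfsf10 (0.994) and Wscd1 (0.993). Mpzl2, whose mutant arrays spread most, was closest to Gspt2 (0.997), Nelfe (0.987), Per3 (0.986), Emc7 (0.984) and Arhgap26 (0.982). The number of genes with r above 0.95 was 188 for Wscd1, 157 for Lmcd1, 213 for Klk8 and 66 for Mpzl2.

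The relatives and partners of the 4 genes were mostly not changed or not measured above the filter. Together with chromosomal neighbours, 199 genes were listed, 116 were tested, 23 rose, 4 fell and 89 did not pass. Among the tested list genes the median difference was 0.16, against 0.11 for all tested genes, of which 16.2% rose and 5.17% fell. The number called, 27, was 17 without menin-deficient replicate 2, and after centring 16 were higher and 6 lower.

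The kallikrein family of secreted proteases, to which Klk8 belongs, showed little signal beside it. Of 26 other members 19 are on the array and 3 were tested, and limma called 0 of them, with 0 at an unadjusted p under 0.05. Limma called 21.3% of all tested genes, and 3 genes are too few to set beside that share. Of the family's 23 probe sets, 14 were above the 40th percentile on no array. Klk1, the tissue kallikrein, differed by -0.09 on its brightest probe set (8.25 in control, adjusted p = 0.407). Its probe sets disagreed: dimmer ones differed by 1.01 and 0.98, with limma adjusted p of 0.0586 and 0.0698 when probe sets were tested separately. With the mean of probe sets, or without _x_at and _s_at probe sets, limma called 1 of these relatives. Klk1b21 differed by 0.01 and lay near its floor (2.23 in control). Klk12, the other tested relative, held 2.38 on all 8 arrays, so it could not be called.

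Proteins that Klk8 is known to cleave, and its inhibitors, gave no call. Of 7 listed genes 5 are on the array and 3 were tested, with 0 called by limma and 0 at an unadjusted p under 0.05. Of all tested genes 21.3% were called. Without control replicate 3 limma called 1 of the listed genes. Fn1, encoding fibronectin, had 8.57, 8.51, 10.3 and 9.20 in controls and 9.48, 9.79, 10.4 and 10.1 in mutants. The groups overlapped through control replicate 3 (difference 0.82, adjusted p = 0.216). L1cam, a neural adhesion gene, was near its floor in both groups (2.36 and 2.16).

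Among adhesion molecules with V-type immunoglobulin domains, the class of Mpzl2, 4 of 11 tested genes rose and 0 fell, with 7 not passing, and the same numbers were called after centring. The list's median difference was 0.43, against 0.11 for all tested genes, of which 16.2% rose and 5.17% fell. The genes that rose were Scn4b and Scn2b, beta subunits of voltage-gated sodium channels that also act in adhesion, F11r, the junctional protein JAM-A, and Cadm1, a synaptic and epithelial adhesion protein. F11r went from 6.90 to 8.41 (log2 difference 1.504, SE 0.19, limma adjusted p = 0.00365). Cadm1 had 2.46, 2.46, 2.48 and 2.46 in controls and 3.06, 4.45, 4.80 and 4.02 in mutants, a step from its floor smaller than that of Mpzl2 and with replicate 1 lowest (difference 1.62, adjusted p = 0.0191). Cadm1 lost its call when control replicate 1 or menin-deficient replicate 2 was left out. Differences on the other Cadm1 probe sets were 0.62, -0.01 and 0. The nearest relatives of Mpzl2 did not pass: Mpzl3 differed by 0.46 (adjusted p = 0.103) and Mpzl1 by 0.43 (adjusted p = 0.124).

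Of WSC-domain proteins and carbohydrate sulfotransferases, the classes of Wscd1, 4 of 19 tested genes rose and 0 fell. The list also holds the tyrosine sulfotransferases Tpst1 and Tpst2, and Tpst1 is among the 4 that rose. Limma called 21.3% of all tested genes, so this list lay close to the overall share. After centring 2 were higher, and 2 rose without control replicate 2 or menin-deficient replicate 1, 2 or 4. Kremen1, a WSC-domain receptor for Dickkopf proteins, rose from 7.20 to 8.05 (limma adjusted p = 0.0103). Hs2st1, which sulfates heparan chains, rose from 10.5 to 10.9 (adjusted p = 0.00642), but differences on its dimmer probe sets were 0.01, -0.22 and 0.02, and the call was lost after centring. Hs6st1 (difference 1.31, adjusted p = 0.0436) and Tpst1, a tyrosine sulfotransferase (0.46, adjusted p = 0.0325), each lost the call under 11 of 18 alternatives, the omission of control replicate 2 among them. Wscd2, the closest relative of Wscd1, was not tested.

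Of LIM and PET domain proteins, the class of Lmcd1, 6 of 31 tested genes rose, 3 fell and 22 did not pass. Among all tested genes 16.2% rose and 5.17% fell. After centring 3 genes of the list were higher and 4 lower. Without menin-deficient replicate 2 or 4 the count fell from 9 to 5 (3 higher and 2 lower), and it was also 5 without a filter. Zyx, encoding the focal adhesion protein zyxin, rose from 7.62 to 8.51 (limma adjusted p = 0.00470). Its mutant arrays (8.33 to 8.81) all exceeded its controls (7.49 to 7.78). Lpp, a zyxin relative, rose by 0.45 (adjusted p = 0.00837). Of its other 7 probe sets, 2 differed by 0.72 and 0.57 and the remaining 5 by -0.05 to -0.00084. Lmo4, a LIM-only transcriptional cofactor, fell from 10.6 to 9.64 (adjusted p = 0.00572). Lasp1, an actin-binding protein gene, was lower by 1.46 on its brightest probe set, of the _x_at kind (adjusted p = 0.00502). Its other _x_at sets differed by -1.45, -1.36, -0.22, 0.06, 0.06 and 0.46. Its _at sets differed by 0.40, with overlapping groups, and by -0.06, so the direction depends on the probe set.

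GATA factors and calcineurin signalling hold the known partners of Lmcd1. Of 15 tested genes 4 rose and 0 fell, against 16.2% and 5.17% of all tested genes, and 11 did not pass. After centring 3 were higher. Nfatc2, a calcineurin-activated transcription factor, rose from 6.06 to 7.43 (limma adjusted p = 0.0175), with its other probe sets at or near 2.08 to 2.17 on all arrays. Rcan1 and Rcan3, inhibitors of calcineurin, rose by 0.37 and 0.87 (adjusted p = 0.00778 and 0.0153). The second Rcan3 probe set differed by 0.79. Ppp3cb, a catalytic subunit of calcineurin, was higher by 0.31 (adjusted p = 0.0208) on 1 probe set, while others differed by 0.09, -0.36, -0.03 and 0.17. The call of Ppp3cb was lost after centring and without menin-deficient replicate 2 or 4. Gata6 was not tested.

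**Figure D4:**
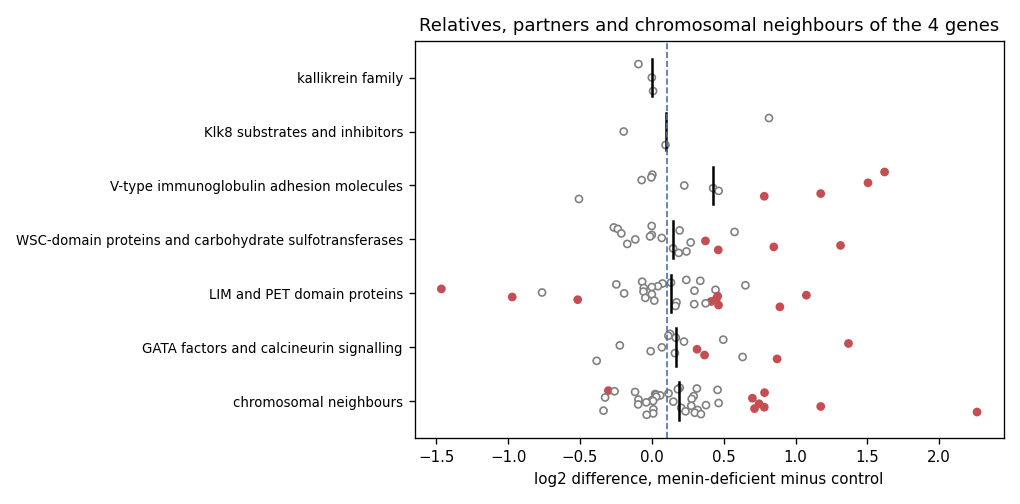
Log2 difference between menin-deficient and control arrays (horizontal) for each tested gene of the 6 lists and the chromosomal neighbours. Filled red points passed limma's adjusted p of 0.05, black bars are list medians and the dashed line is the median of all tested genes (0.11). The adhesion list has its 4 called genes at 0.78 to 1.62, and the kallikrein list has none.

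Genes beside the 4 genes on their chromosomes were compared because position was not used to choose them. The 5 nearest tested genes on each side were taken in the order of the RefSeq gene table. Of 40 neighbours 7 rose and 1 fell, 8 in all, against 21.3% of all tested genes. After centring 6 were higher and 2 lower. Most of these calls lay around Mpzl2, where 5 of 10 neighbours rose and 1 fell. Around Wscd1 and around Lmcd1 1 of 10 rose (Pimreg and Setmar, by 0.75 and 0.71), and around Klk8 0 of 10 rose or fell, where differences ran from -0.09 to 0.34. Of the Klk8 neighbours, Klk12 held 2.38 on all 8 arrays and could not be called. Klk1b21 (2.23 in control and 2.24 in mutants) and Siglece (2.13 and 2.14) lay near the lowest array value of 2.08. Whether the 4 neighbourhoods differ was not tested.

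The genes that rose beside Mpzl2 had different levels and folds. Tmprss4, encoding a membrane serine protease of epithelia, had 3.09, 3.28, 3.36 and 2.66 on control arrays 1 to 4. The mutant arrays 1 to 4 had 6.01, 5.14, 5.66 and 4.64. It was 4.80-fold higher (log2 difference 2.26, SE 0.31, limma adjusted p = 0.00514), and unlike Mpzl2 it was lowest in replicate 4. Scn2b had 8.66, 8.58, 8.75 and 8.87 in controls and 10.06, 9.81, 10.05 and 9.64 in mutants (difference 1.18, SE 0.11, adjusted p = 0.00185). Scn4b had 13.29, 13.21, 13.28 and 13.22 in controls and 14.02, 14.09, 14.03 and 14.001 in mutants. Its difference of 0.78 was small but its spread was very low (SE 0.04, adjusted p = 0.000363). Scn2b and Scn4b kept their calls under 18 alternatives and Tmprss4 under the 17 that could test it, the 60th percentile filter having removed it. Scn2b and Scn4b are counted in the adhesion list as well. Ift46 (0.70) and Cd3g (0.78), named after their values were seen, rose too, and Atp5l, an ATP synthase subunit gene, fell (-0.30, adjusted p = 0.00721). Kmt2a, encoding menin's partner MLL1, lies among these neighbours and differed by 0.15 (adjusted p = 0.429). Mpzl3, the next tested gene beside Mpzl2, did not pass.

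**Figure D5:**
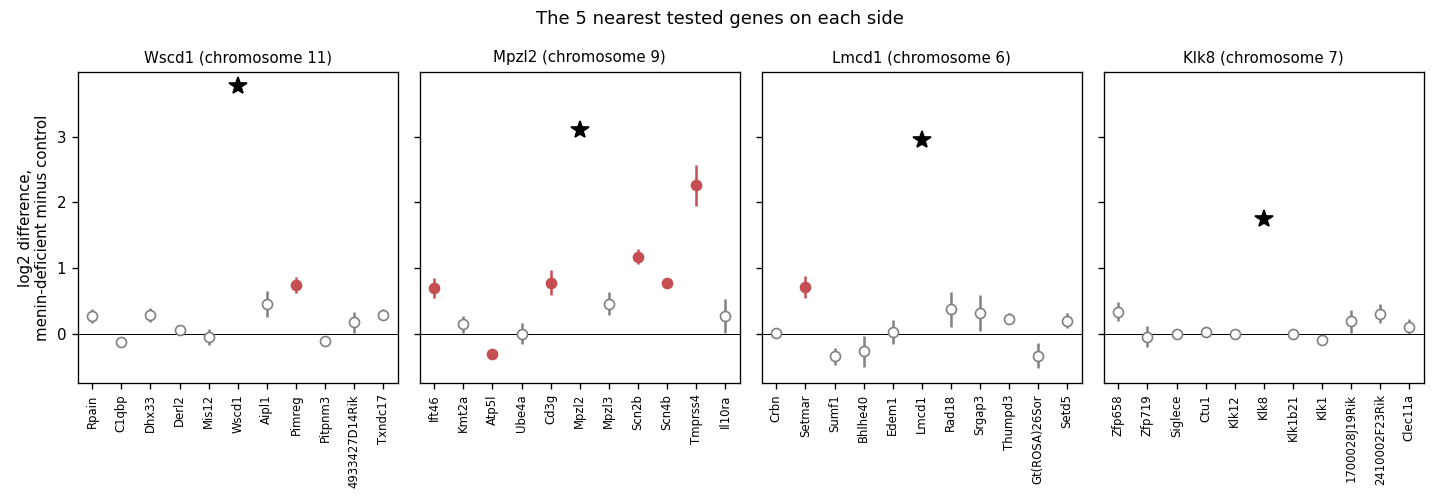
Log2 difference between menin-deficient and control arrays (vertical, bars are SE) for the 5 nearest tested genes on each side of Wscd1, Mpzl2, Lmcd1 and Klk8, in chromosomal order and not to distance. Stars are the 4 genes and filled red points passed limma's adjusted p of 0.05. Called genes surround Mpzl2 (6 of 10), and none lies beside Klk8, where some neighbours lay near their floor.

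Markers of other cell types were read beside these results. Limma called 16.2% of all tested genes higher and 5.17% lower. The mean of 9 B-lineage progenitor markers was 14.3 on every control array and 14.3 to 14.4 in mutants. Of these, 2 rose, Igll1 by 0.38 and Dntt by 0.35 (limma adjusted p = 0.0457 and 0.00442), and 1 fell, Rag1, by 0.28 (adjusted p = 0.0326). Of 9 epithelial markers on the array 5 were tested and 1 rose, Epcam (from 7.01 to 8.72, limma adjusted p = 0.0151, but -0.14 on its other probe set). The epithelial mean was 3.23 to 3.45 in controls and 3.47 to 3.83 in mutants, with replicate 3 the highest. Krt18 differed by 1.15 (4.62 and 5.76, adjusted p = 0.0509), Cldn4 by 0.71 (2.22 and 2.94, adjusted p = 0.136) and Cdh1 by -0.03 (4.77 and 4.74), while Krt5 stood at 2.83 in both groups. The brightest probe sets of Krt14, Krt19 and Trp63 were above the 40th percentile on no array, and Krt8 was not tested. Of 6 muscle markers 1 was tested, and limma called 0 with 0 at an unadjusted p under 0.05, with means of 2.24 to 2.25 and 2.23 to 2.25. Stromal means overlapped (2.62 to 3.11 and 2.65 to 2.78), as did endothelial means (4.00 to 4.15 and 3.92 to 4.29).

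Mean marker levels did not overlap between the groups for T cells, NK cells, plasmacytoid dendritic cells, stem and progenitor cells, megakaryocytes and epithelial cells. Of all tested genes 16.2% were called higher, and for 20.3% every mutant array was above all controls. The gap was narrow for megakaryocytes (4.38 against 4.40), epithelial cells (3.45 against 3.47) and stem and progenitor cells (7.29 against 7.39). These gaps were below the 0.13 that centring takes off. Erythroid means overlapped (5.65 to 6.29 in controls and 5.49 to 6.38 in mutants), with 0 of 3 tested markers called. Of 9 T cell markers on the array 5 were tested and 4 rose, Thy1, Lat, Cd5 and Cd3g. The T cell mean was 4.45 to 4.59 in controls and 5.24 to 5.37 in mutants, while Cd3e stayed at 2.08 on all 8 arrays and Cd3d did not exceed 2.18. Of 9 NK cell markers 3 rose. The NK mean was 5.74 to 6.12 in controls, 6.34, 6.38 and 6.36 in menin-deficient replicates 1, 2 and 4 and 7.19 in replicate 3, the array lowest for Wscd1, Mpzl2 and Lmcd1. Of 8 monocyte and macrophage markers 3 rose, with means of 6.46 to 6.86 in controls and 6.35 to 7.75 in mutants. Of 4 mast cell and basophil markers 2 rose, with means of 7.31 to 8.20 in controls and 8.09 to 9.30 in mutants. Of 9 plasmacytoid dendritic cell markers 2 rose, with means of 7.79 to 8.03 and 8.36 to 8.72. Of 6 tested stem and progenitor markers limma called 0, with 2 at an unadjusted p under 0.05 and means of 7.08 to 7.29 in controls and 7.39 to 7.99 in mutants. Of 3 tested megakaryocyte markers it called 0, with 1 at an unadjusted p under 0.05 and means of 4.15 to 4.38 and 4.40 to 4.55. Menin-deficient replicate 3 was the highest of all 8 arrays for NK cell (7.19), monocyte (7.75), mast cell (9.30), stem and progenitor (7.99) and epithelial (3.83) means. It was also the highest for the B-lineage progenitor (14.41) and endothelial (4.29) means. The part of these markers in the rise of the 4 genes was not tested. By Xist and Eif2s3y levels 1 control (replicate 3) and 2 mutant mice (replicates 1 and 2) were male. With sex as a covariate the differences of the 4 genes kept their direction. The direction could not have turned, since each sex held arrays of both groups and every mutant array exceeded every control.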

How the data were processed

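The deposited values are log2 expression values of 8 arrays, 4 a group, normalized by the authors. The scale was judged from their range. MAS5 and GCRMA stand in the submitters' processing notes, and it is not stated which produced the table. The arrays' number limits the precision. A floor compresses low values, so folds from it are approximate.

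Beside 64 manufacturer controls there were 45037 probe sets. The platform annotation gives 1 symbol to 34945, several to 932 and none to 9160. Entrez identifiers matched 34741 to RefSeq (GRCm38.p6). Probe sets above their array's 40th percentile on at least 4 arrays passed, and each of 11885 genes was represented by its brightest. The test was limma 3.58.1 (lmFit, eBayes; R 4.3.3) without covariates, with Benjamini-Hochberg adjustment over all tested genes and a threshold of 0.05. On simulated data with 200 changed genes among 11885, the fit recovered 28.0% of differences of 0.5 (log2), 78.0% of 1 and 98.0% of 2. There were 7 false calls among 159. The simulation had independent noise and upward changes only, without tied floor values or a shift of all genes. The real arrays gave 2536 calls, so these rates do not carry over to them.

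The members and lists were chosen with earlier results of these data known. Named were all probe sets of the 4 genes, Men1, up to 4 called genes per list with the lowest p (the 2 lowest where none passed), the 5 genes most like each of the 4, and the probe sets raised from background. Alternatives were quantile normalization, centring on the median tested gene, no filter, a 60th percentile filter, the mean of probe sets, separate tests of all probe sets, no _x_at or _s_at sets, trended and robust eBayes, a replicate block, sex, and leaving out each array. A floor defined per probe set was added after seeing the data. Replicate numbers did not pair the arrays: the correlations of same-numbered arrays' deviations were -0.11, -0.31, -0.17 and 0.05. Plots used matplotlib 3.10.9 (Python 3.11.15).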

Additional observations from a re-analysis of the deposited data

Results flagged for a closer look

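In 5 of 23 genes examined 1 array lay far from the rest of its group (the 4 genes, Men1 and the called genes named above). Both groups of each gene were examined and chance gives such a gap in about 1 in 20 groups. In Wscd1 (control replicate 3, 2.27), Lmcd1 (control replicate 4, 2.86) and Cadm1 (control replicate 3, 2.48) the other 3 arrays held 1 identical floor value, so any array off it stands apart. In Klk8 control replicate 1 was lower (9.20) than the other controls (9.42 to 9.47). In Atp5l control replicate 1 was higher (11.9) than the others (11.7 to 11.8). The low mutant array of Mpzl2, replicate 3, was not far enough from the rest to be listed.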

How the results depend on the processing

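The differences of the 4 genes moved by less than 1 SD under the 12 alternatives computed for them (both rescalings, the block, sex and each array left out). Here 1 SD is the larger of the group SDs. Leaving out 1 of 4 arrays cannot move a group mean that far, and the block cannot move the difference. The size was thus checked only by the rescalings and sex. The direction of the 4 genes was kept, but leaving out an array could not change it, since no mutant array lay below any control. Nor could the block, which holds 1 array of each group per replicate number. Sex could not change it either, since each sex held arrays of both groups. With 1 array left out Wscd1 ran from 3.58 to 3.91 and Mpzl2 from 2.75 to 3.64 (its _x_at probe set from 0.52 to 0.95). Lmcd1 ran from 2.86 to 3.15 and Klk8 from 1.66 to 1.81. The count of called genes, 2536, was 1673 without a filter and 1410 to 2255 with 1 array left out. With the replicate number as a block, which the arrays' deviations do not bear out as a pairing, it was 1328, and the block gave 14 called list genes against 27 and 5 called neighbours against 8. With 1 array left out these were 17 to 28 and 6 to 9. Probe sets raised from background by the array's 40th percentile, 2 in all, were 1 after centring, 12 at the 50th percentile, 0 at a gap of 2, 2 to 3 with 1 array left out and 8 by each probe set's own floor. Those 8 were 3 at a gap of 2 and 8 to 13 with 1 array left out. Leaving out an array loosens both rules, so neither count could fall. Lasp1 turned to 0.40 (adjusted p = 0.286) without _x_at and _s_at probe sets. Own floors could not be read after rescaling, which breaks tied values. Floors limit Wscd1, Mpzl2 and Lmcd1: their folds are approximate.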
